A study of Homo sapiens with 14 samples.

Results

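The histone genes were taken by symbol from the expression tables of 2 human leukaemia lines: 88 genes of the 26254 listed in either table. Replication-dependent genes were those whose symbols begin with HIST1H, HIST2H, HIST3H or HIST4H (73 genes). Replication-independent genes were those beginning with H2AF or H3F3, together with H1F0 and H1FX (15 genes). The K562 table held 85 of the 88 and the SIGM5 table held 84, with 81 in both. Of the replication-dependent genes, 56 lie in the HIST1 cluster on chromosome 6, 13 in HIST2 and 3 in HIST3 on chromosome 1, and 1, HIST4H4, on chromosome 12.

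RNA enriched on oligo(dT) beads was sequenced in 14 libraries, 2 in each of 7 groups. SIGM5, an acute myeloid leukaemia line, received DMSO or 12.5 µM TETi76, a small-molecule inhibitor of the TET dioxygenases, enzymes that oxidise 5-methylcytosine in DNA. K562, an erythroleukaemia line, was used as clone K01, TET2+/+ in the series text, in 4 groups: DMSO, TETi76 at 12.5 µM, ascorbate at 100 µM, and both compounds together. The fifth K562 group was clone K18, labelled TET2-/-, in DMSO. Treatment lasted 24 h in every group, and ascorbate (vitamin C) is a cofactor that can raise TET activity. Each genotype was 1 clone, so genotype and clone cannot be told apart. The labels number the replicates without saying that they were separate cultures, so the p-values cover only library-to-library spread, which could be technical.

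Replication-dependent histone genes supply the histones that package newly made DNA. They have no introns, are transcribed mainly in S phase, and their mRNAs normally end in a conserved stem-loop, bound by the protein SLBP, in place of a poly(A) tail. Replication-independent genes encode the variants used outside replication, such as H3.3 and H2A.Z, and their mRNAs carry poly(A) tails. Oligo(dT) enrichment therefore reports only the polyadenylated form of a replication-dependent mRNA. A change in the amount of such an mRNA and a change in the part of it that is polyadenylated cannot be told apart here, nor can less RNA per cell be told apart from fewer cells of a kind.

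The 3′ ends show how the classes differ in sequence. In GENCODE v29 transcripts, the histone stem-loop was present in 33 of the 73 replication-dependent genes and in 1 of the 15 replication-independent genes, H2AFX, against 62 of 19669 protein-coding genes in all (0.315%). For 32 of the replication-dependent genes, HIST1H1C and HIST1H2BK among them, that annotation holds coding sequence only, so a stem-loop could not be looked for. In 24 of the 33, the annotated transcript runs on for at least 100 bases past the stem-loop, and 19 of the 33 hold the polyadenylation signal AATAAA after it. Sites are printed for genes whose values are given further on, with the stem-loop in capitals.

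HIST2H2BE: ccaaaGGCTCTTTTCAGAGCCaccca
HIST3H2A: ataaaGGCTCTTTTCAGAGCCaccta
HIST1H2BL: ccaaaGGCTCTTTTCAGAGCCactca
HIST1H4E: tcaaaGGCCCTTTTCAGGGCCgccca
H2AFX: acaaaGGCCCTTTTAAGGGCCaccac

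The HIST2H2BE transcript continues for 1729 bases past the site with 1 AATAAA, that of HIST3H2A for 390 bases with 0 and that of HIST1H4E for 1022 bases with 2. The HIST1H2BL transcript ends 40 bases past it. The H2AFX transcript runs on for 1044 bases and holds 0 copies of AATAAA after the site, so H2AFX, which encodes the variant phosphorylated at DNA breaks, carries the 3′ end feature of the other class.

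Promoter windows of 300 bases around the start (RefSeq, GRCh38.p14) were found for 77 of the 88 genes. They were missing for H1F0, H3F3AP4, H3F3C, HIST1H2AH, HIST1H2APS1, HIST1H3I, HIST1H3J, HIST1H4A, HIST1H4C, HIST2H2BA and HIST2H2BC. The windows are shown for HIST1H2BK and HIST1H1C, the most abundant replication-dependent genes in K562, and for H1FX and H2AFX, the replication-independent genes with the largest change under TETi76 in K01 and under ascorbate. Capitals mark 3 motifs on either strand: the octamer ATTTGCAT bound by OCT1, CCAAT, and TATAAA, where overlapping copies run together.

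HIST1H2BK, minus strand, chr6:27146809-27147108: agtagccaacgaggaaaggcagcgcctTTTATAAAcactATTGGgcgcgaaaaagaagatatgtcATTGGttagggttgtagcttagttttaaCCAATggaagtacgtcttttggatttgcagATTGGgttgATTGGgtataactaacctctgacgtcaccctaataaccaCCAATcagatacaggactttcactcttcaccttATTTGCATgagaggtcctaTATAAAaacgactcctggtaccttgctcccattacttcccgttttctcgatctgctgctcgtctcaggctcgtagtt
HIST1H1C, minus strand, chr6:26056421-26056720: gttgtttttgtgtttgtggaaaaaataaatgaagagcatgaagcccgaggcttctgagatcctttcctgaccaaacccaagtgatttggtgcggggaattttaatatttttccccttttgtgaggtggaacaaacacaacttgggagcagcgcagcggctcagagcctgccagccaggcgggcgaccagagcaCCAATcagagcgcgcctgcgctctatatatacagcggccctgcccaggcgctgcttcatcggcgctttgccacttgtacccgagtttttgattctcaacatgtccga
H1FX, minus strand, chr3:129316237-129316536: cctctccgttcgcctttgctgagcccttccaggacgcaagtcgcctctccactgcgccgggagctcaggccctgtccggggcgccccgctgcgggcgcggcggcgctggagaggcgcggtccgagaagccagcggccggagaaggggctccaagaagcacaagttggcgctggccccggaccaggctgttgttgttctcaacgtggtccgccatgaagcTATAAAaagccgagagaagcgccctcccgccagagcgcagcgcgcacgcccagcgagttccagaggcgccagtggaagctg
H2AFX, minus strand, chr11:119095416-119095715: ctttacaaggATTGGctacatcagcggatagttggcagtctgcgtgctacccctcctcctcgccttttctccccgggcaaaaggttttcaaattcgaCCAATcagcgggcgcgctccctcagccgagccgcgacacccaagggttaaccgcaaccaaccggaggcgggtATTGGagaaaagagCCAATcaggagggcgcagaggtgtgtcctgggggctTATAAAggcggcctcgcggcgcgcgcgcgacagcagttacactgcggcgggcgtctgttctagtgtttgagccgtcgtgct

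HIST1H2BK held all 3 motifs and HIST1H1C held CCAAT alone. Across the replication-dependent genes the octamer followed the histone type: it was in 14 of 18 H2B and 11 of 16 H2A windows, in 1 of 12 H3 windows and in 0 of 13 H4 and 0 of 6 H1 windows, against 1.77% of all 35116 windows. CCAAT was in 55 of 65 replication-dependent and 10 of 12 replication-independent windows (34.61% of all windows). TATAAA was in 44 of 65 and 4 of 12 (11.53% of all).

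SIGM5 libraries held 18893636 to 23639198 counts. K562 depth was estimated at 4.87 to 9.25 M reads from the smallest steps in the deposited values, at which 1 read on a 500-base transcript is worth 0.216 to 0.411 FPKM (fragments per kilobase of transcript, scaled to library size). TET2 mRNA stood at 1.99 and 2.399 FPKM in K01 in DMSO and at 3.31 and 2.95 FPKM in K18, so the mRNA level does not show the loss that the label of K18 names. All 10 erythroid markers passed the K562 filter and all 10 myelomonocytic markers passed that of SIGM5, where the globin genes HBG1 and HBE1 had 0 counts. The 5 lymphoid markers summed to 12.3 to 39.1 FPKM in K562, most of it CD3D, and to 1.02 to 1.09 CPM (counts scaled to library size) in SIGM5, and MS4A1 was at 0 in all 14 libraries.

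In K562, polyadenylated RNA from the replication-dependent class came mostly from a pair of genes. HIST1H2BK, an H2B gene, had a mean level of 1001 FPKM over the 10 libraries, and HIST1H1C, which encodes the linker histone H1.2, 908 FPKM. Together they made 50.5% to 56.1% of the FPKM of the class in each library. HIST1H2AC (134 FPKM), HIST1H4C (110 FPKM), HIST1H4E (109 FPKM) and HIST1H2BJ (90.1 FPKM) came next on the same scale. In K01 in DMSO these 4 genes stood, in replicates 1 and 2, at 175 and 168, 152 and 161, 176 and 129, and 93.9 and 87.2 FPKM. The ranges of HIST1H4C and HIST1H4E overlap, so the order of these neighbours is not settled.

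**Figure D1:**
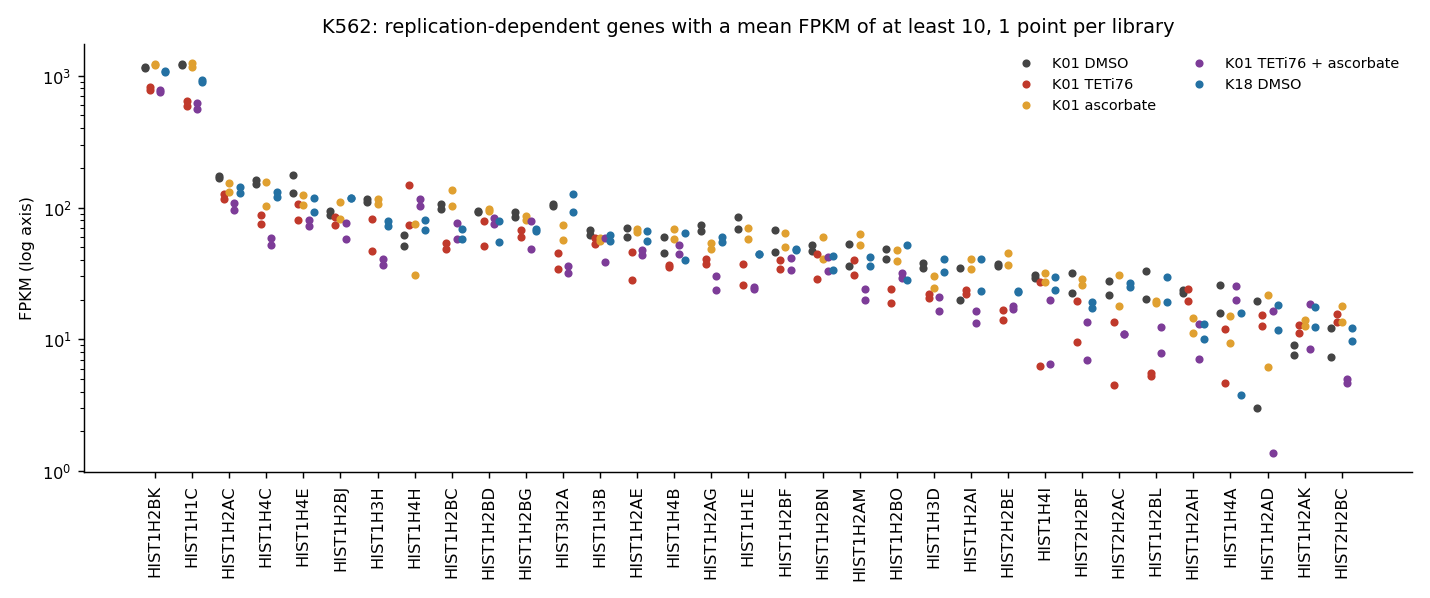
Level in FPKM (log axis) of the 33 replication-dependent genes with a mean of at least 10 FPKM in K562, 1 point per library and 1 colour per group, ordered by mean level. HIST1H2BK and HIST1H1C have the highest means, 1001 and 908 FPKM, and points of the TETi76 groups lie low for most genes.

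Of the 71 replication-dependent genes in the K562 table, 33 had a mean of at least 10 FPKM, 5 of at least 100 FPKM and 20 were under 1 FPKM. Values of 0 in all 10 libraries were listed for 9 of them. Among these are HIST2H2AA4, HIST2H3A, HIST2H3C and HIST2H4A, whose transcripts share at least 97.1% of their 50-base windows with a twin gene. Reads from such twins cannot be placed on 1 copy, how the authors' counting treated them is not given in the sources used here, and a 0 there does not show a silent gene. The same limit touches HIST1H4J and HIST1H4K, HIST1H2AI and HIST1H2AJ, HIST1H2AM, HIST2H3D (80.4% of windows shared), and in part HIST2H2AC and HIST1H2BK (30.5% and 22.6%). HIST1H1C, by contrast, shared 0 windows with another histone gene.

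Replication-independent genes in K562 were led by the entry H3F3AP4 (817 FPKM), H2AFZ, which encodes H2A.Z (409 FPKM), H3F3B, 1 of the genes for H3.3 (142 FPKM), and H2AFY, which encodes macroH2A1 (118 FPKM). H2AFV (92.1 FPKM), H2AFX (80.1 FPKM) and H1FX (58.7 FPKM) were lower. H1F0 (0.220 FPKM) and H2AFJ (0.0117 FPKM) were close to 0 in K562. In SIGM5 these last genes had 460 to 661 and 1939 to 2118 counts.

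The entry for H3F3A, the other H3.3 gene, cannot be read as its expression. It was listed at 0.00787 to 0.0152 FPKM in 9 K562 libraries and at 39.01 FPKM in ascorbate replicate 1, and at a count of 0 in all 4 SIGM5 libraries. Its processed copy H3F3AP4 stood at 627 to 993 FPKM in K562 and is not listed for SIGM5. Every 50-base window of H3F3AP4 (100%) also occurs in H3F3A transcripts, so values under H3F3AP4 may hold reads of H3F3A. The sum of both entries is 919 and 974 FPKM in K01 in DMSO, and adding H3F3A changes a library by more than 1 FPKM only in ascorbate replicate 1.

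In SIGM5 the replication-dependent mRNAs were scarce. In DMSO, HIST1H2BK had 291 and 364 counts, HIST3H2A 228 and 253, HIST1H1C 75 and 134, HIST1H2BH 97 and 107, HIST2H2AC 74 and 94, and HIST2H2BE 50 and 77. Mean counts were under 10 for 41 of the 70 genes, and 13 had 0 counts in all 4 libraries (a count of 0 allows up to 3 counts in a library). These counts are not scaled for length, so they give no order of levels between genes.

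Summed over the class, replication-dependent RNA was lower with TETi76 in K562 and higher in SIGM5. In K01 the sum was 4468 and 4377 FPKM in DMSO, 4344 and 4256 with ascorbate, 2704 and 2823 with TETi76, and 2607 and 2572 with TETi76 and ascorbate. K18 lay between, at 3674 and 3796 FPKM. The groups with TETi76 did not overlap those without. Leaving out HIST1H1C and HIST1H2BK, the sum was 2090 and 2004 FPKM in DMSO and 1338 and 1362 FPKM with TETi76, so the lower sum did not rest on these genes alone. Replication-independent genes summed to 1876 and 1956 FPKM in DMSO and 1510 and 1490 FPKM with TETi76, and the ratio of the classes went from 2.38 and 2.24 to 1.79 and 1.89. In SIGM5 the replication-dependent sum was 66.7 and 72.7 CPM in DMSO and 90.7 and 95.6 CPM with TETi76. The replication-independent sum went the other way, from 2761 and 2704 to 2320 and 2554 CPM. HIST1H1C and HIST1H2BK made 29.5% and 31.9% of the replication-dependent counts in DMSO and 40.1% and 40.7% with TETi76. Without them the SIGM5 sum was 47.0 and 49.5 CPM in DMSO and 54.3 and 56.7 CPM with TETi76, so most of its rise came from these genes. No test was made on these sums, which are descriptions.

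**Figure D2:**
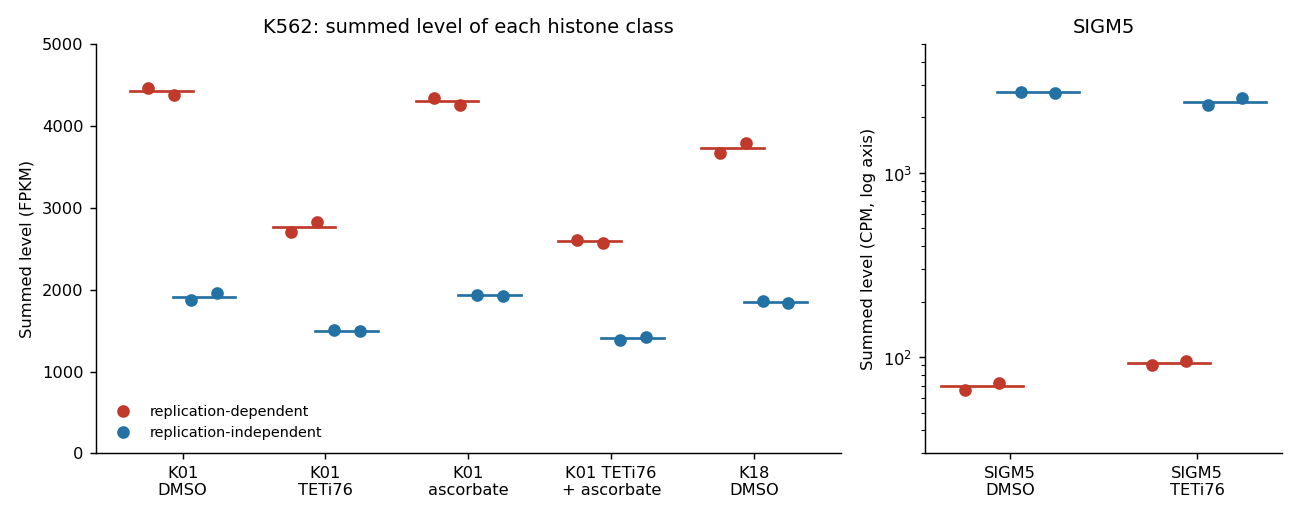
Summed level of the replication-dependent (red) and replication-independent (blue) genes in each library, with a bar at the mean of the 2 libraries of a group; FPKM for K562 on the left, CPM on a log axis for SIGM5 on the right. The red points of both TETi76 groups of K01 reach at most 2823 FPKM and the others at least 3674 FPKM, while in SIGM5 the red points are higher with TETi76.

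TETi76 in K01 asks what the inhibitor does to a TET2+/+ clone. Of the 55 replication-dependent genes tested, 18 were lower and 0 higher at an adjusted p under 0.05 (limma across 12530 genes, Benjamini-Hochberg), where 13.7% of all genes were lower and 9.61% higher (23.3% in either direction). The median log2 change of the 55 was -0.62, against -0.01 over all genes tested, and 45 of the 55 lay below 0 and 10 above. A further 16 genes did not pass the filter of 1 FPKM in at least 2 libraries. Of the 18, 10 kept the call in every fit that left out 1 library: HIST1H1C, HIST1H1E, HIST1H2AC, HIST1H2AG, HIST1H2BC, HIST1H2BK, HIST1H2BL, HIST1H4C, HIST2H2BE and HIST3H2A.

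Linker histone genes were among the clearest. HIST1H1C stood at 1237 and 1212 FPKM in DMSO and at 584 and 639 FPKM with TETi76, a log2 change of -1.002 ± 0.063 (SE; adjusted p = 9.82e-06, limma). HIST1H1E, which encodes H1.4, had 84.7 and 68.4 FPKM in DMSO and 37.4 and 26.0 FPKM with TETi76 (-1.26 ± 0.17, adjusted p = 0.000791). In neither gene did the groups overlap. That held for every histone gene called in this comparison, so it adds no support to the calls. All 5 H1 genes tested lay below 0, and these were the 2 that passed.

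Among H2A and H2B genes, 5 of 14 and 7 of 18 were lower, where 13.7% of all genes were lower. HIST1H2BK went from 1141 and 1161 to 781 and 822 FPKM (-0.52 ± 0.04, adjusted p = 4.03e-05, limma), a smaller fold than most of the 18 but the largest drop in FPKM after HIST1H1C. HIST3H2A went from 103 and 106 to 44.9 and 34.3 FPKM (-1.39 ± 0.18), and its divergent neighbour HIST3H2BB from 15.8 and 8.75 to 2.64 and 0.511 FPKM (-2.45 ± 0.50), the largest change on the log2 scale among the called genes. HIST1H2BL fell from 32.7 and 20.1 to 5.27 and 5.595 FPKM (-2.05 ± 0.27). None of these genes had overlapping groups, which adds no support to their calls.

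HIST2H2BE, a gene known to give polyadenylated mRNA outside S phase, had 36.3 and 37.1 FPKM in DMSO and 14.1 and 16.6 FPKM with TETi76 (-1.21 ± 0.12). Its neighbour HIST2H2AC had 27.9 and 21.5, then 4.5 and 13.6 FPKM (-1.51 ± 0.39). HIST1H2AC went from 175 and 168 to 116 and 126 FPKM (-0.50 ± 0.09), and HIST1H2BC, opposite it, from 97.0 and 106 to 53.8 and 48.7 FPKM (-0.97 ± 0.16). HIST1H2BO, another H2B gene of the HIST1 cluster, had 48.7 and 40.7, then 23.9 and 18.8 FPKM (-1.04 ± 0.24). HIST1H2BJ, the sixth most abundant gene, did not pass, at 93.9 and 87.2 FPKM in DMSO and 84.8 and 74.1 FPKM with TETi76 (-0.19 ± 0.15, adjusted p = 0.41).

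H3 and H4 genes were lower in 2 of 9 cases in each type, where 13.7% of all genes were lower. Their median log2 changes were -0.74 and -0.62, against -0.53 for H2A and -0.56 for H2B genes. HIST1H4C had 152 and 161 FPKM in DMSO and 87.9 and 75.4 FPKM with TETi76 (-0.93 ± 0.16, adjusted p = 0.00366, limma). HIST1H4E had 176 and 129, then 106 and 80.2 FPKM (-0.71 ± 0.18), and HIST1H3H 116 and 110, then 82.4 and 47.1 FPKM (-0.85 ± 0.20). HIST1H4H was 1 of the 10 replication-dependent genes above 0, at 51.4 and 61.9 FPKM in DMSO and 73.7 and 148 FPKM with TETi76 (+0.88 ± 0.39), and did not pass (adjusted p = 0.136). HIST1H4E, HIST1H3H, HIST3H2BB, HIST2H2AC, HIST1H2BO, HIST1H2AE, HIST1H2BF and HIST1H3D lost the call when a single library was left out, with adjusted p values that rose to between 0.0509 and 0.282. DMSO replicates 1 and 2 and TETi76 replicates 1 and 2 each ended some of these calls.

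How the called genes spread over the features was as follows. Of 15 tested genes with a mean of at least 50 FPKM, 9 were lower, of 18 between 10 and 50 FPKM, 8, and of 22 under 10 FPKM, 1. The median log2 changes were -0.53, -0.79 and -0.62 in that order, so in this comparison the genes under 10 FPKM were not shifted less. With ascorbate in both arms they were, at medians of -0.54, -0.95 and -0.08 in the same order. The share of all genes called at each level was not counted. By cluster, 14 of 47 were lower in HIST1, 2 of 6 in HIST2 and both genes of HIST3. Genes with the stem-loop and at least 100 annotated bases past it were lower in 9 of 18 cases and had a median of -0.79. Genes annotated with coding sequence only, where a stem-loop could not be looked for, were lower in 5 of 25 cases, with a median of -0.62. The other groups were lower in 2 of 6 cases each: stem-loop and under 100 bases past it (-0.57), and longer annotation without it (-0.30). Over all their genes in K562, the first 2 groups also differed in level, with medians of 23.27 and 6.55 FPKM. Level and annotation were not separated. The median was -0.66 for 24 genes with the octamer (10 lower) and -0.66 for 26 without it (7 lower). Of 11 neighbouring pairs with opposed starts and both genes tested, both genes were lower in 4 (HIST1H2AC with HIST1H2BC, HIST1H2BF with HIST1H3D, HIST2H2AC with HIST2H2BE, and HIST3H2A with HIST3H2BB), 1 gene was lower in 5 and neither in 2. HIST1H2BF stands in 2 of these pairs, with HIST1H3D and with HIST1H2AD. These splits are counts without a test, and over all genes tested 13.7% were lower.

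Replication-independent genes tested in K01 mostly moved down too, but not all. Of 7 tested, 5 were lower and 1 higher with TETi76, where 13.7% of all genes were lower and 9.61% higher. H1FX, which encodes the linker variant H1.10, fell from 84.1 and 87.4 to 28.7 and 31.6 FPKM (-1.48 ± 0.09, adjusted p = 5.97e-06, limma). H3F3AP4 fell from 919 and 974 to 674 and 672 FPKM (-0.49 ± 0.05). These were the calls that held in every fit leaving out a library.

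The other changes were small. H2AFZ went from 429 and 443 to 373 and 354 FPKM (-0.26 ± 0.07, adjusted p = 0.022, limma). H2AFY went from 130 and 140 to 110 and 114 FPKM (-0.27 ± 0.07), and H2AFV, a close relative of H2AFZ, from 103 and 105 to 83.3 and 82.8 FPKM (-0.32 ± 0.08). H2AFX rose from 71.3 and 66.5 to 83.2 and 78.4 FPKM (0.23 ± 0.07, adjusted p = 0.0446). All 4 of these calls were lost when any 1 of the 4 libraries was left out, with adjusted p values of 0.0514 to 0.215. H3F3B had 139 and 141 FPKM in DMSO and 158 and 157 FPKM with TETi76 (0.17 ± 0.06) and did not pass (adjusted p = 0.061).

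**Figure D3:**
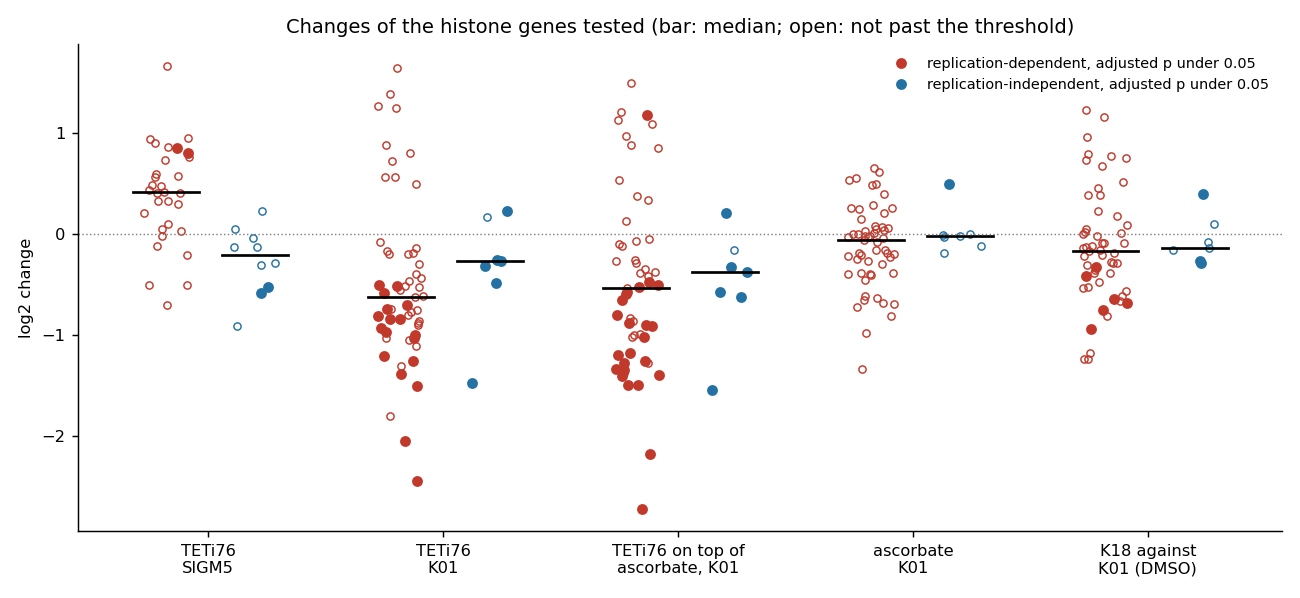
Log2 change of each histone gene tested, in 5 comparisons, for replication-dependent (red) and replication-independent (blue) genes; filled points passed an adjusted p of 0.05 and black bars are medians. The red medians are 0.42 for TETi76 in SIGM5, -0.62 in K01 and -0.54 in K01 with ascorbate in both arms.

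With ascorbate in both arms, TETi76 was compared with ascorbate alone in K01. At an adjusted p under 0.05 (limma), 23 of 55 replication-dependent genes were lower and 1 higher, where 17.8% of all genes were lower and 12.8% higher (30.7% in either direction). The median log2 change was -0.54, and 12 of the 55 lay above 0. HIST1H1C had 1239 and 1162 FPKM with ascorbate and 619 and 560 FPKM with both (-1.03 ± 0.06), and HIST1H2BK 1196 and 1225, then 752 and 780 FPKM (-0.66 ± 0.04). HIST1H3H went from 115 and 106 to 40.9 and 36.6 FPKM (-1.49 ± 0.20). The largest single changes were in low genes. HIST2H3D, whose reads may be shared with near-identical copies, went from 11.6 and 13.6 to 0 and 3.19 FPKM (-2.73 ± 0.58). HIST1H2AL went from 10.6 and 8.60 to 4.43 and 0 FPKM (-2.18 ± 0.65). Low genes as a set were shifted little: the median of the 22 tested with a mean under 10 FPKM was -0.08.

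HIST1H4H was the gene that rose, from 30.5 and 74.5 to 104 and 115 FPKM (1.18 ± 0.39, adjusted p = 0.0453, limma). Its call ended without ascorbate replicate 1 (adjusted p = 0.28), without the first library with both compounds (0.12) and without the second (0.16). Of the 24 calls, 14 held in every fit that left out a library. The lost calls included HIST1H2AL, with adjusted p values up to 0.124.

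Lower calls without and with ascorbate were shared by 14 of the 55 replication-dependent and 4 of the 7 replication-independent genes tested, where 10.1% of all genes were called lower in both. The comparisons used different control libraries. HIST1H2AC had 132 and 152 FPKM with ascorbate and 108 and 95.1 FPKM with both, HIST1H4C 156 and 104, then 51.6 and 58.5, HIST1H4E 105 and 125, then 80.3 and 72.9, HIST1H2BC 135 and 102, then 76.3 and 58.1, and HIST3H2A 73.7 and 56.3, then 31.6 and 36.0 FPKM. In each the groups did not overlap, which adds no support to the calls.

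Among replication-independent genes, 5 of 7 were lower and 1 higher with TETi76 on top of ascorbate. Of all genes, 17.8% were lower and 12.8% higher. H1FX went from 77.4 and 72.4 to 26.4 and 23.6 FPKM (-1.55 ± 0.09), H3F3AP4 from 891 and 993 to 627 and 631 FPKM (-0.58 ± 0.05), and H2AFY from 140 and 124 to 104 and 97.7 FPKM (-0.38 ± 0.07). H2AFZ had 457 and 408 FPKM with ascorbate and 327 and 362 FPKM with both (-0.33 ± 0.07). H2AFV, at 101 and 90.1, then 82.7 and 87.1 FPKM, did not pass (-0.17 ± 0.08, adjusted p = 0.129). H3F3B rose from 139 and 137 to 154 and 164 FPKM (0.20 ± 0.06, adjusted p = 0.0235, limma). That call was lost without either ascorbate library (0.0731 and 0.0921) and without the second library with both compounds (0.12).

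With ascorbate alone, in K01, 0 of 55 replication-dependent genes passed (limma), where 0.479% of all genes passed. At an unadjusted p under 0.05, 1 was higher and 6 were lower, where 6.09% of all genes were higher and 5.88% lower. The median log2 change was -0.07. HIST1H1C and HIST1H2BK differed from DMSO by -0.03 ± 0.06 and 0.07 ± 0.04. HIST3H2A was lower in both libraries (73.7 and 56.3 FPKM against 103 and 106, -0.69 ± 0.18) but did not pass (adjusted p = 0.174).

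H2AFX was the 1 histone gene called with ascorbate. It rose from 71.3 and 66.5 to 95.4 and 99.3 FPKM (0.49 ± 0.07, adjusted p = 0.0232, limma), with no overlap, and the call was lost without any 1 of the 4 libraries (0.117 to 0.169). With both compounds H2AFX stood at 65.4 and 60.1 FPKM, below ascorbate alone (-0.63 ± 0.07, adjusted p = 0.00021) although TETi76 without ascorbate gave 83.2 and 78.4 FPKM. The interaction of TETi76 with ascorbate was -0.85 ± 0.10 (adjusted p = 0.0125, limma), 1 of the 0.63% of all genes called. It did not pass without DMSO replicate 1 (0.0569), DMSO replicate 2 (0.0578), TETi76 replicate 1 (0.0607) or ascorbate replicate 2 (0.0516).

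HIST2H2BC was the other gene with a called interaction (-2.06 ± 0.31, adjusted p = 0.0252, limma). RefSeq lists it under H2BC20P, a pseudogene symbol, so its values need not reflect a histone-coding gene. It had 7.39 and 12.2 FPKM in DMSO, 15.6 and 13.4 with TETi76, 13.5 and 17.8 with ascorbate, and 4.69 and 4.999 with both. It was also the 1 replication-dependent gene lower when ascorbate was added to TETi76 (-1.41 ± 0.22, adjusted p = 0.032), where 0.726% of all genes passed. With both compounds against ascorbate alone it was lower as well (-1.50 ± 0.22). The values are low. The interaction was lost in 7 of 8 fits without 1 library and the other call in all 4, with adjusted p values of 0.0599 to 0.153.

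**Figure D4:**
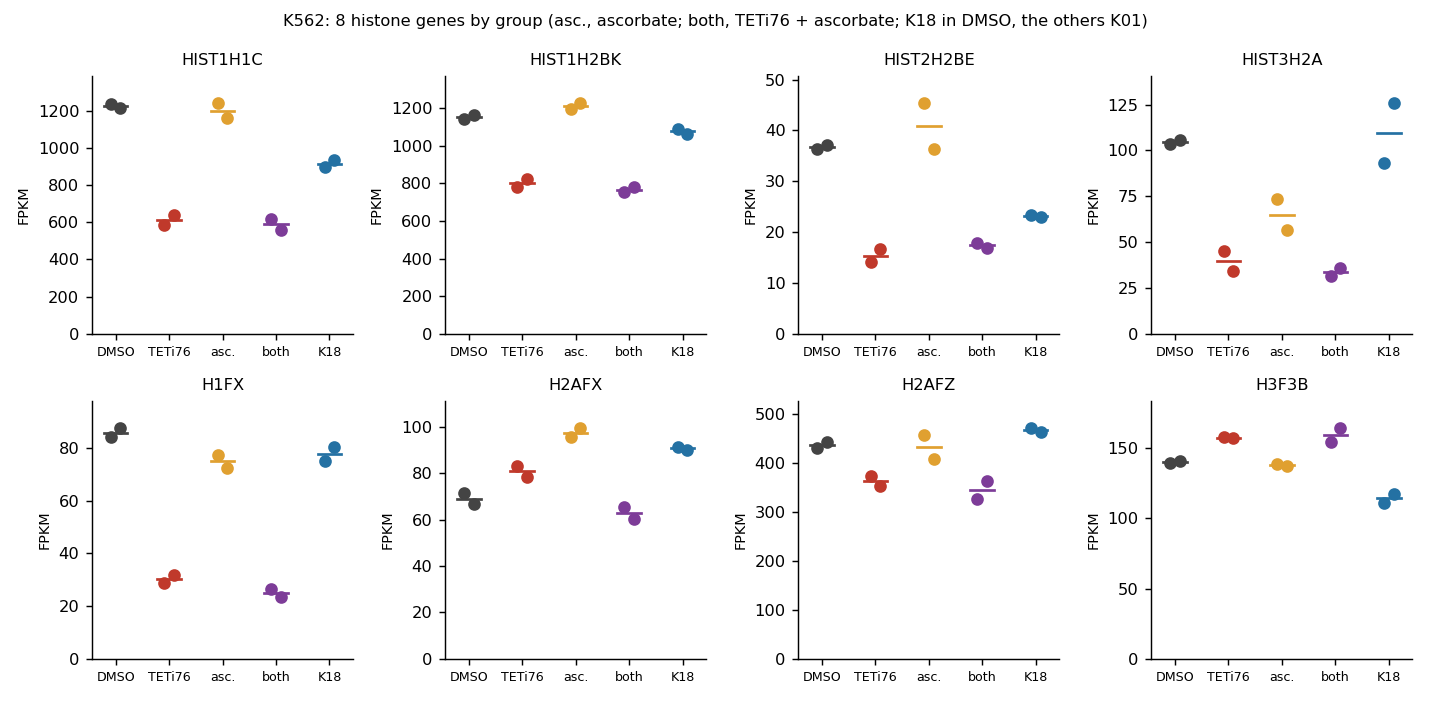
FPKM of 8 histone genes in the 5 K562 groups, each axis from 0, with 2 points per group for the libraries and a bar at their mean. HIST1H1C, HIST1H2BK, HIST2H2BE, HIST3H2A and H1FX are low in both TETi76 groups, whereas H2AFX is at 95.4 and 99.3 FPKM with ascorbate and at 65.4 and 60.1 FPKM with both compounds.

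K18 against K01 asks how a clone labelled TET2-/- differs from a TET2+/+ clone in DMSO. It shares its DMSO controls with the TETi76 and ascorbate comparisons in K01, so its values are given on their own and no likeness to them is measured. Here 6 of 55 replication-dependent genes were lower and 0 higher (limma, adjusted p under 0.05), where 8.21% of all genes were lower and 6.86% higher (15.1% in either direction). The median log2 change was -0.17. In a fit of these 4 libraries alone, 9 of the 55 were lower and 4 higher, where 8.04% of all genes were lower and 7.51% higher. Beside these calls, 4 of 10 erythroid markers were lower in K18, with sums of 4673 and 4471 FPKM against 8374 and 9648 in K01. Of 6 tested myelomonocytic markers, 2, CD33 and SPI1, were called higher, and 1, LYZ, lay below 0 without passing. Both EPCAM and KRT8, 2 of the 3 tested stromal or epithelial markers, were lower. Their part in the result was not tested.

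HIST1H1C stood at 895 and 935 FPKM in K18 against 1237 and 1212 in K01 (-0.42 ± 0.06, adjusted p = 0.00238, limma), and its call held in every fit that left out a library. HIST1H1E had 44.6 and 44.7 FPKM (-0.76 ± 0.17), HIST2H2BE 23.3 and 22.97 FPKM (-0.64 ± 0.12) and HIST1H2BC 68.2 and 57.8 FPKM (-0.68 ± 0.16). HIST1H2AC had 130 and 143 FPKM (-0.33 ± 0.09) and HIST1H2AH 10.1 and 13.1 against 23.5 and 22.5 FPKM (-0.94 ± 0.25). These 5 calls were lost in 1 or more such fits, with adjusted p values of 0.0518 to 0.217. Every 1 of the 4 libraries ended at least 1 of them. HIST1H2BK, at 1090 and 1064 FPKM, did not pass (-0.10 ± 0.04, adjusted p = 0.165), and HIST3H2A, at 93.1 and 126 FPKM, had a log2 difference of 0.05 ± 0.18.

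Of the replication-independent genes, H2AFX was higher in K18, at 91.2 and 90.1 FPKM (0.39 ± 0.07, adjusted p = 0.006, limma). H3F3B was lower, at 111 and 118 FPKM (-0.29 ± 0.06), and so was H2AFY, at 114 and 109 FPKM (-0.27 ± 0.07). H1FX, at 75.0 and 80.5 FPKM, did not pass (-0.14 ± 0.09, adjusted p = 0.319). The H2AFX call was lost without K01 DMSO replicate 2 (0.0512), that of H3F3B without the same library (0.0552) or K18 replicate 1 (0.0785), and that of H2AFY without any 1 of the 4 libraries (0.0701 to 0.193).

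In SIGM5 most replication-dependent genes lay on the other side of 0. With TETi76, 2 of the 31 replication-dependent genes tested were higher and 0 lower (edgeR quasi-likelihood test across 11340 genes, adjusted p under 0.05), where 2.58% of all genes were higher and 1.54% lower (4.13% in either direction). The median log2 change was 0.42, against 0.00 over all genes, and 25 of the 31 lay above 0. The other 39 genes had too few counts to be tested.

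HIST1H2BK rose from 291 and 364 to 637 and 690 counts, a log2 change of 0.80 ± 0.14 after scaling (adjusted p = 0.000903, edgeR). HIST1H1C rose from 75 and 134 to 232 and 204 counts (0.85 ± 0.21, adjusted p = 0.0193). Neither gene had overlapping groups in CPM, which adds no support to the calls. The HIST1H2BK call was lost without TETi76 replicate 2 (adjusted p = 0.0613). That of HIST1H1C was lost without DMSO replicate 1 (0.0588), TETi76 replicate 1 (0.374) or TETi76 replicate 2 (0.101).

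Others did not pass. HIST1H3H had 6 and 11 counts in DMSO and 30 and 33 with TETi76 (1.66 ± 0.48, adjusted p = 0.0557, edgeR). HIST2H2BE had 50 and 77, then 88 and 111 counts (0.43 ± 0.25), and HIST3H2A 228 and 253, then 320 and 282 counts (0.10 ± 0.15). HIST2H2AC had 74 and 94, then 85 and 84 counts (-0.21 ± 0.23). HIST1H2BH went against its class, with 97 and 107 counts in DMSO and 71 and 75 with TETi76 (-0.71 ± 0.23, adjusted p = 0.0878).

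Replication-independent genes in SIGM5 gave 2 lower and 0 higher calls of 10 tested, both linker histones. Of all genes, 1.54% were lower and 2.58% higher. H1F0, which encodes H1.0, a variant of slowly dividing and differentiated cells, had 597 and 661 counts in DMSO and 460 and 517 with TETi76 (-0.59 ± 0.13, adjusted p = 0.011, edgeR). H1FX had 3846 and 4187, then 3243 and 3291 counts (-0.53 ± 0.11, adjusted p = 0.00425). Without TETi76 replicate 1 or replicate 2 the call was lost for H1F0 (0.479 and 0.0635) and for H1FX (0.289 and 0.1).

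H2AFZ had 15475 and 18160, then 14559 and 17161 counts (-0.31 ± 0.10, adjusted p = 0.102), and H2AFJ 2063 and 2118, then 2072 and 1939 counts (-0.29 ± 0.11, adjusted p = 0.162). H2AFY had 5887 and 6818, then 8800 and 8549 counts (0.22 ± 0.10, adjusted p = 0.241). H3F3B (-0.13 ± 0.10), H2AFV (-0.13 ± 0.10) and H2AFX (-0.04 ± 0.11) did not pass either. H2AFX had 3715 and 3452 counts in DMSO and 4269 and 3936 with TETi76, which are 199 and 161, then 179 and 171 CPM, and these overlap.

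The difference between lines was tested gene by gene. Each TETi76 effect was taken within its own table, on log2(CPM + 1) in SIGM5 and log2(FPKM + 1) in K01, and subtracted. Of the 30 replication-dependent genes tested in both lines, 13 had a called difference (limma effects, Benjamini-Hochberg over 9740 genes), where 13% of all genes had one (7.61% with the SIGM5 effect above and 5.35% below). In all 13 the SIGM5 effect lay above that in K01. By sign, 22 of the 30 were higher in SIGM5 and lower in K01, 6 lower in both, 2 higher in both and 0 the other way.

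HIST1H2BK had effects of 0.76 in SIGM5 and -0.52 in K01, a difference of 1.28 ± 0.14 (adjusted p = 4.16e-07). HIST1H1C had effects of 0.77 and -1.002, a difference of 1.77 ± 0.19 (adjusted p = 4.69e-07). For HIST2H2BE (0.35 and -1.21) and HIST3H2A (0.09 and -1.39) the difference was made mostly by the fall in K01. Low counts in SIGM5 pull the log2(CPM + 1) effects of rare genes towards 0.

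Of 6 replication-independent genes, H1FX and H2AFY had a called difference. H1FX fell in both lines, by 0.52 and 1.48 on the log2 scale (difference 0.96 ± 0.14, adjusted p = 1.13e-05). H2AFY differed by 0.49 ± 0.12. H2AFZ had effects of -0.31 and -0.26, a difference of -0.05 ± 0.12 that did not pass (adjusted p = 0.842).

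**Figure D5:**
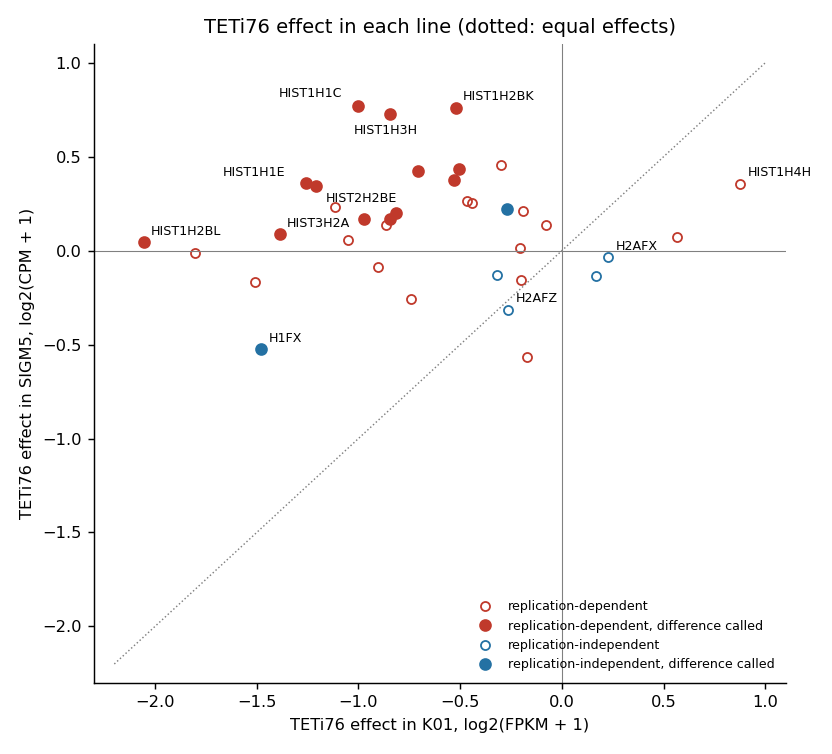
Effect of TETi76 on each histone gene tested in both lines, K01 on the horizontal axis in log2(FPKM + 1) and SIGM5 on the vertical axis in log2(CPM + 1); filled points had a called difference, and equal effects would lie on the dotted line. HIST1H1C and HIST1H2BK lie at -1.002 and -0.52 in K01 and at 0.77 and 0.76 in SIGM5, while H1FX is below 0 on both axes.

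Genes that serve S phase and histone supply were counted beside these values, and their part in the result was not tested. Of 25 S phase genes, 21 were lower in K01 with TETi76 and 0 higher (median -0.54), where 13.7% of all genes were lower. The 21 included the helicase subunits MCM7 (-1.55 ± 0.06) and CDC45 (-1.35 ± 0.08), the thymidylate synthase TYMS (-1.04 ± 0.10) and the polymerase POLA1 (-0.95 ± 0.11). The summed level of the 25 genes was 1770 and 1749 FPKM in DMSO and 1064 and 1098 FPKM with TETi76. It was 1777 and 1703 FPKM with ascorbate, 1024 and 996 with both compounds and 1558 and 1543 in K18. There 8 of the 25 were lower, against 8.21% of all genes. In SIGM5 1 of the 25, MCM7, was lower (-0.47 ± 0.10), where 1.54% of all genes were lower. The sums were 4882 and 4770 CPM in DMSO and 4454 and 4462 CPM with TETi76. The effects on 13 of the 25 differed between lines, all with SIGM5 above K01. Of all genes, 13% differed, 7.61% with SIGM5 above.

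Of the 20 factors that process the 3′ end of histone mRNA or degrade it, 4 were higher and 4 lower in K01 with TETi76, where 23.3% of all genes were called in either direction. SRRT, which links the cap to 3′ end processing, rose by 0.71 ± 0.09, ZNF473 by 0.53 ± 0.11 and ZCCHC6, which adds uridines to decaying histone mRNA, by 0.51 ± 0.14, while LSM11, a subunit of the U7 particle, fell by 0.60 ± 0.19. SLBP had 79.9 and 69.6 FPKM in DMSO and 62.4 and 65.7 FPKM with TETi76 and was not called. On top of ascorbate it was lower, at 56.6 and 48.8 against 83.1 and 69.7 FPKM (-0.53 ± 0.11). LSM10, another U7 subunit, was higher in K01 with TETi76 without ascorbate (0.41 ± 0.08). LSM10 was also the 1 gene of the list called with ascorbate alone (0.48 ± 0.08) and in K18 (0.40 ± 0.08). These comparisons share the K01 DMSO libraries. In SIGM5 0 of the 17 tested passed (edgeR), and 0 did at an unadjusted p under 0.05.

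Of 28 histone chaperones and remodellers, 3 were lower and 1 higher in K01 with TETi76, a smaller share than the 23.3% of all genes called in either direction: CHAF1B, a subunit of the assembly factor CAF-1 (-0.61 ± 0.13), its partner RBBP4 (-0.46 ± 0.10), the FACT subunit SSRP1 (-0.36 ± 0.06) and SRCAP, which installs H2A.Z (0.43 ± 0.10). With ascorbate in both arms 11 of the 28 were lower and 3 higher, where 17.8% of all genes were lower and 12.8% higher. In K18 5 were lower, where 8.21% of all genes were lower. In SIGM5 0 of 28 passed (edgeR), and 0 did at an unadjusted p under 0.05. Of 10 erythroid markers, 6 were lower in K01 with TETi76, where 13.7% of all genes were lower and 9.61% higher. The 10 markers summed to 8374 and 9648 FPKM in DMSO and 7925 and 8278 FPKM with TETi76. The myelomonocytic factor SPI1 rose from 9.49 and 6.23 to 23.4 and 23.7 FPKM, the 1 of 6 tested markers of its list that passed. The keratin KRT8 rose from 196 and 186 to 527 and 517 FPKM, the 1 of 3 tested stromal or epithelial markers that passed, and that list summed to 238 and 237 FPKM in DMSO and 569 and 556 FPKM with TETi76. In SIGM5 3 of 10 myelomonocytic markers were higher and 3 lower, where 2.58% of all genes were higher and 1.54% lower. That list summed to 22002 and 22110 CPM in DMSO and 18898 and 19500 CPM with TETi76.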

How the data were processed

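The members and gene lists were chosen with earlier results of these data known. The authors deposited raw read counts per gene for SIGM5, and for K562 they deposited length-scaled values, treated as FPKM although RPKM cannot be told apart. Per the submitters' processing notes, hg19, STAR (no version), edgeR 3.24.3 and limma 3.38.3 were used, with no role given. For SIGM5, edgeR 4.0.16 (TMM scaling, filterByExpr, quasi-likelihood test) was run on the counts. For K562, log2(FPKM + 1), a scale that understates changes of low genes, went into limma 3.58.1 with a trended, robust variance, in 1 fit of 5 groups for genes with at least 1 FPKM in at least 2 libraries. In K562, 2275 short-RNA entries and 26 entries named by a number were left out. All p-values are two-sided, adjusted by Benjamini and Hochberg's method across every gene tested, with calls at 0.05. Scripts were tested on simulated data. Named genes were the main replication-independent genes, the 6 replication-dependent genes with the highest mean FPKM in K562 or CPM in SIGM5, and called genes by size of change, up to 8 per class and direction in TETi76 and K18 comparisons, 4 in others and 4 per list, plus up to 8 called genes shared by the TETi76 comparisons of K01. HIST1H4H in K01, HIST1H3H in SIGM5, HIST3H2A with ascorbate, SPI1, CD33 and KRT8 were also singled out after their values were seen. Among 1927 K562 values of up to 0.15 FPKM, 90.7% were whole multiples of 1 read within 0.02 of a read (28.7% after random scaling). Alternatives included other scalings, filters, pseudocounts, DESeq2 1.42.0, a replicate block and leaving out each library.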

Additional observations from a re-analysis of the deposited data

Results flagged for a closer look

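The effect of TETi76 differed between SIGM5 and K01 for 15 histone genes, by the test of the difference itself. In both lines 30 replication-dependent and 6 replication-independent genes were tested. Over all 9740 genes tested, 13% had a called difference, 7.61% with the SIGM5 effect above. The SIGM5 minus K01 difference, on the log2 scale, was 2.10 for HIST1H2BL, 1.77 for HIST1H1C, 1.62 for HIST1H1E, 1.58 for HIST1H3H, 1.55 for HIST2H2BE and 1.47 for HIST3H2A. It was 1.28 for HIST1H2BK, 1.14 for HIST1H2BC, 1.13 for HIST1H4E, 1.02 for HIST1H2AE, 1.01 for HIST1H2AG, 0.94 for HIST1H2AC and 0.91 for HIST1H2BD. Among replication-independent genes it was 0.96 for H1FX and 0.49 for H2AFY. In 13 of the 15 the gene is replication-dependent, and in all 15 the effect in SIGM5 lay above that in K01. Within SIGM5 itself, only HIST1H2BK and HIST1H1C of the 13 had a called change.

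The effect of TETi76 in K01 differed with and without ascorbate for 2 entries of the histone list, by the interaction term, where 0.63% of all genes were called. Neither call held in every fit that left out a library. On the log2 scale the difference was -0.85 for H2AFX and -2.06 for HIST2H2BC, which has a pseudogene symbol in RefSeq.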

How the results depend on the processing

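Groups of 2 libraries limit most calls. Leaving out 1 library at a time gave 12 to 16 replication-dependent calls for TETi76 in K01 and 17 to 25 with ascorbate in both arms. It gave 0 to 2 for TETi76 in SIGM5, 1 to 4 for K18 against K01, 0 to 1 for ascorbate added to TETi76, and 0 to 1 for the interaction. Replication-independent calls ranged over 0 to 4 in SIGM5, 2 to 2 in K01, 0 to 2 in K18, 0 to 0 with ascorbate and 0 to 1 for the interaction. Calls that differed between lines ranged over 10 to 21, against 15. No result reversed.

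The replicate numbers did not pair the K562 libraries (correlations of -0.024 to 0.054). With the replicate block, replication-dependent calls for ascorbate added to TETi76 went from 1 to 2, those in K01 with TETi76 from 18 to 21, and those in SIGM5 from 2 to 3. In SIGM5 (correlation -0.235) a crossed block, chosen after seeing the data, gave 4 calls in each class.

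DESeq2 gave 1 replication-dependent call in SIGM5, as did keeping only genes with little shared sequence. Fitting only the groups compared gave 13 replication-dependent calls in K18 (4 higher, 9 lower), and 0 for ascorbate added to TETi76, for the interaction and, among replication-independent genes, for ascorbate. Without the low-value filter, ascorbate added to TETi76 and the interaction gave 0. A filter of 5 FPKM gave 1 replication-independent call for ascorbate added to TETi76, and quantile normalization gave 1 in K18. Quantile normalization left 16 replication-dependent genes lower in K01 and 19 with ascorbate in both arms, and moved the share of higher among all called genes from 41.2% to 50.7% in K01 and from 44.3% to 58.5% for the interaction. In K01, 11% of all genes were then lower and 11.4% higher. Median-ratio scaling moved 4 summed class levels by more than the spread of their libraries. For single genes, 57 of the values under settings other than a left-out library lost a call and 6 gained one. The cause was not tested. In K562, 1 read on 500 bases is worth 0.216 to 0.411 FPKM.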
